A study of Rattus norvegicus with 23 samples.

Results

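Reg3b, Fabp6 and Defa5 are 3 genes, each read by 1 probe, out of 15462 named genes and 41012 probes on the array. They were chosen by the spread of their log2 ratios over the 23 blood arrays of the study, as genes of the gut with very wide values, so the width of their spread is a description and not a result. The standard deviation of the log2 ratio over the 23 arrays was 1.69 for Reg3b, 1.75 for Fabp6 and 1.39 for Defa5. These ranked 4th, 3rd and 10th of 20735 features, whose median was 0.138. What was asked of them is whether they move together, on which arrays, and with the diet of the dam.

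Reg3b encodes a C-type lectin that cells of the intestinal lining release against bacteria. Its older name, Pap, comes from the pancreas, which makes it during pancreatitis. Fabp6 encodes the ileal bile acid binding protein, a small carrier inside absorptive cells of the ileum, where bile acids are taken up through the transporter Slc10a2. Alpha-defensins such as Defa5 are antimicrobial peptides stored in granules. In the rat they are made both by Paneth cells at the base of the small intestinal crypts and by neutrophils.

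Peripheral blood mononuclear cells (PBMC, the lymphocytes and monocytes of blood) came from trunk blood of Wistar rat pups, decapitated at 21 days of age, on a Ficoll gradient, which leaves most granulocytes behind. The groups were 5 male and 6 female pups of dams whose calories were cut by 20% during lactation (CR), and 6 male and 6 female pups of dams fed freely (control). All pups were themselves fed freely. The labels name 5 CR dams and 11 control dams and do not tie a pup to its dam, so some pups may share a litter and the p-values below may be too small. Each pup's RNA was labelled with Cy5 and hybridised to its own array against 1 Cy3 pool of all samples, with no dye swap. A log2 ratio of 0 therefore means the level of the pool. In RNA of a mixed cell sample, fewer cells of a type and less RNA per cell cannot be told apart.

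The 23 arrays lay on 6 slides, each scanned at 1 time. Between 20603 and 24076 probes per array stood well above background, and the Cy5 background of an array had a median of 27 to 30 scanner units. Of the marker genes on the array, 10 of 10 B cell genes, 15 of 16 T cell genes and 9 of 14 monocyte genes were well above background on all 23 arrays. So were 12 of 12 red cell genes and 9 of 13 neutrophil granule genes, of cells that the gradient is meant to remove. One step of the processing failed in part. The background correction raised all low Cy5 values on control female 2 and on CR male 4, CR female 2 and CR female 5. The median corrected Cy5 value was between 232.8 and 313.5 on these 4 arrays, against 84.3 to 122.6 on the others. These are the arrays whose brightest local background reached 4692 to 9681 units. The low log2 ratios of Reg3b and Fabp6 on these arrays lie nearer to 0 than those of the other dim arrays. The correlations, group means, diet differences and within-slide pairs of Reg3b and Fabp6 are therefore also given with the local background replaced by its array median before the correction, called the array-median background below.

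The probe for Reg3b lies at chr4:112357807-112358789 (rn4, plus strand) and the probe for Fabp6 at chr10:28694853-28695787 (rn4, minus strand), as the scanner files give them. Promoter sequences were matched for 2 of the 3 members. Those of Reg3b and Fabp6, and of Reg3g, the neighbour whose values were most like those of Reg3b, are shown because the genes shared the same high arrays. Each line gives the 250 bases before the start of the gene, 5′ to 3′ on the strand of the gene, from RefSeq on GRCr8. Capitals mark 3 short motifs searched on both strands: TATAAA (the TATA box), TTCNNNGAA (bound by Stat factors) and TTTATG (bound by Cdx2, a factor of the intestinal lining).
Reg3b, chr4:112419526-112419775, plus strand: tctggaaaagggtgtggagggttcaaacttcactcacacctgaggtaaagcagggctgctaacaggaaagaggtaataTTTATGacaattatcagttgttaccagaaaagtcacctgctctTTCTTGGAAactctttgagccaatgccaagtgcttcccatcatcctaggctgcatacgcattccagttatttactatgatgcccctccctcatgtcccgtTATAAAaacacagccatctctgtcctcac
Reg3g, chr4:112484739-112484988, minus strand: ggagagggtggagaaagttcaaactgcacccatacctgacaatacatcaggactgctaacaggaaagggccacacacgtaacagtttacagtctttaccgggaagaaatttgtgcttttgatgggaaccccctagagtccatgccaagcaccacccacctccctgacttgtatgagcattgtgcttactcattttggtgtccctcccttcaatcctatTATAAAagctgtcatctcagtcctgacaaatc
Fabp6, chr10:28569728-28569977, minus strand: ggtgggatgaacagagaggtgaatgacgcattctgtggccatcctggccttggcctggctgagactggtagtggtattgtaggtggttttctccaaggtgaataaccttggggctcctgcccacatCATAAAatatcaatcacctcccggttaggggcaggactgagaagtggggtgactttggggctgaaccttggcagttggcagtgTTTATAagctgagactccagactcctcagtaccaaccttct

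In the Reg3b promoter TATAAA lies 29 to 24 bases before the start, TTCNNNGAA 129 to 121 bases before it and TTTATG 172 to 167 bases before it. Reg3g holds TATAAA alone, 32 to 27 bases before its start. Fabp6 holds TATAAA 41 to 36 bases and TTTATG 124 to 119 bases before its start, both on the other strand. None of these matches overlap. Of 33469 promoters of the same length, 12.9% hold TATAAA, 7.67% hold TTCNNNGAA and 11.4% hold TTTATG, so each match alone is common. The inverted repeat IR1, bound by the bile acid receptor FXR, was not in the 3 windows and is in 0.0269% of all of them. The matches are letters in a window and were not tested for binding.

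Reg3b, the lectin, was bright on 4 arrays, all of control pups. Cy5 brightness was 6361 on control male 1, 1095 on control male 2, 1382 on control male 5 and 3613 on control female 1. In CR males it ran from 52.4 to 70.0 with a median of 58.2, and in CR females from 55.0 to 63.1 with a median of 58.7. The remaining 8 control arrays lay between 52.8 and 87.0. The pool gave 257 to 463 in Cy3 on every array, above all 19 dim arrays and below the 4 bright ones. Negative control spots had a median of 35.3 to 41.5 per array, so the dim arrays stood little above them. The 4 bright arrays held 91.2% of the summed Cy5 brightness of this probe over the 23 arrays.

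As log2 ratios to the pool, Reg3b was at 2.34, 0.18 and 0.70 on control males 1, 2 and 5 and at 1.57 on control female 1. No CR pup was above the pool: CR males ran from -3.47 to -2.03 with a median of -3.22, and CR females from -3.41 to -1.44 with a median of -3.17. The other control males lay between -3.23 and -2.57, and the other control females between -3.26 and -1.94. The control groups therefore overlap the CR groups at the low end and extend far above them.

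Fabp6, the bile acid carrier, was bright on the same 4 arrays. Its Cy5 brightness was 6585 on control male 1, 825 on control male 2, 2363 on control male 5 and 6311 on control female 1. The CR males lay between 59.5 and 81.1 (median 67.9), the CR females between 56.9 and 78.9 (median 61.4), and the other 8 controls between 56.7 and 105.1. The pool gave 208 to 438. The log2 ratios were 2.47, 0.03, 1.73 and 2.48 on the 4 bright arrays, in the order above. They ran from -3.13 to -1.76 in CR males and from -3.09 to -1.06 in CR females. The share of the summed Cy5 brightness on the 4 arrays was 92.4%.

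Defa5 did something else in its order over the arrays. Detection did not set it apart: Defa5 and Fabp6 were well above background on all 23 arrays, and Reg3b on 21. The Cy5 brightness of Defa5 ran from 143 to 2835 in CR males (median 806) and from 230 to 3151 in control males (median 909). In CR females it ran from 210 to 11070 (median 613) and in control females from 681 to 4201 (median 1963). The brightest pups were CR female 4 at 11070 and CR female 6 at 8480, with log2 ratios of 2.69 and 2.21. The dimmest was CR male 1 at 143, with a log2 ratio of -2.28, and CR female 1 followed at -2.22. All 4 groups overlap. On the arrays that were bright for Reg3b and Fabp6, Defa5 was at -1.75, -0.50 and -1.92 in control males 1, 2 and 5 and at 0.79 in control female 1, and these arrays held 8.19% of its summed brightness.

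**Figure D1:**
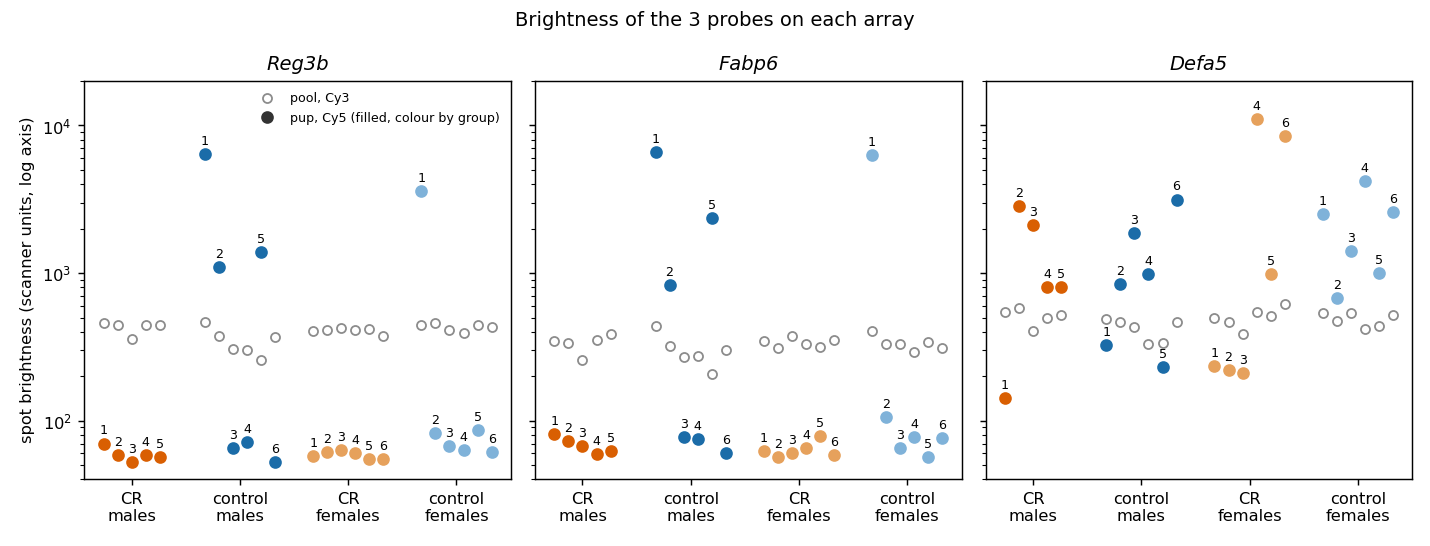
Spot brightness in scanner units (log axis) of the probes for Reg3b, Fabp6 and Defa5 on each of the 23 arrays, by group, with the replicate number above each pup. Filled points are the pup (Cy5) and open grey points the pool (Cy3) on the same array. Control males 1, 2 and 5 and control female 1 stand above the pool for Reg3b and Fabp6 and all other pups lie below it, whereas Defa5 spreads from 143 to 11070 in an order of its own.

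Whether the members move together was asked over arrays. In Cy5, Reg3b and Fabp6 split the arrays into 4 bright and 19 dim ones. The widest gap in log2 Cy5 brightness took 0.528 of the range for Reg3b and 0.433 for Fabp6. In the log2 ratios, which the correlations use, it took 0.280 for Reg3b, 0.304 for Fabp6 and 0.131 for Defa5. Only Fabp6 passed the limit of 0.3 for a split there, with 20 arrays below the gap and 3 above. Following the split in Cy5, no correlation over all 23 arrays was tested, and 3 pairs were tested within the 19 dim arrays. Reg3b and Fabp6 had r = 0.948 and rho = 0.854 there, with permutation p-values adjusted over the 3 pairs of 3e-05 and 6e-05, and r = 0.893 without the 2 arrays farthest from the median. The unadjusted p of r was 1e-05, the smallest the permutations can give. The 4 arrays with the failed correction are the 4 highest of the 19 for both genes. Leaving out the 2 farthest arrays removed CR females 2 and 5 but kept control female 2 and CR male 4, which were raised too. With the local background replaced by its array median before the correction, r was 0.620 (adjusted permutation p = 0.0144). With the scanner software's own ratio r was 0.385 (adjusted permutation p = 0.156) and with Cy5 alone 0.449 (adjusted permutation p = 0.0806). A relation between Reg3b and Fabp6 below the bright arrays was thus not found under every processing.

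Defa5 was not shown to follow either gene. Within the 19 dim arrays Reg3b and Defa5 had r = -0.30 and rho = -0.33 (adjusted permutation p = 0.318 and 0.258), and Fabp6 and Defa5 had r = -0.19 and rho = -0.10 (adjusted permutation p = 0.439 and 0.69). Without the 2 farthest arrays r was -0.25 and -0.09. The sign is not settled either: under scale normalization between arrays r was 0.568 and 0.580, each with an adjusted permutation p of 0.0141, while rho was 0.23 and 0.33 (adjusted permutation p = 0.333 and 0.252). With Cy5 alone Reg3b and Defa5 gave r = -0.48 and rho = -0.56 (adjusted permutation p = 0.0806 and 0.0405). Centred on the slides, the pairs gave 0.98 for Reg3b with Fabp6, 0.11 for Reg3b with Defa5 and 0.11 for Fabp6 with Defa5. These values rest on the failed correction, which raised arrays of slides 2 and 5 beside others of those slides that were not raised. Centring on slides was not repeated with the array-median background.

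**Figure D2:**
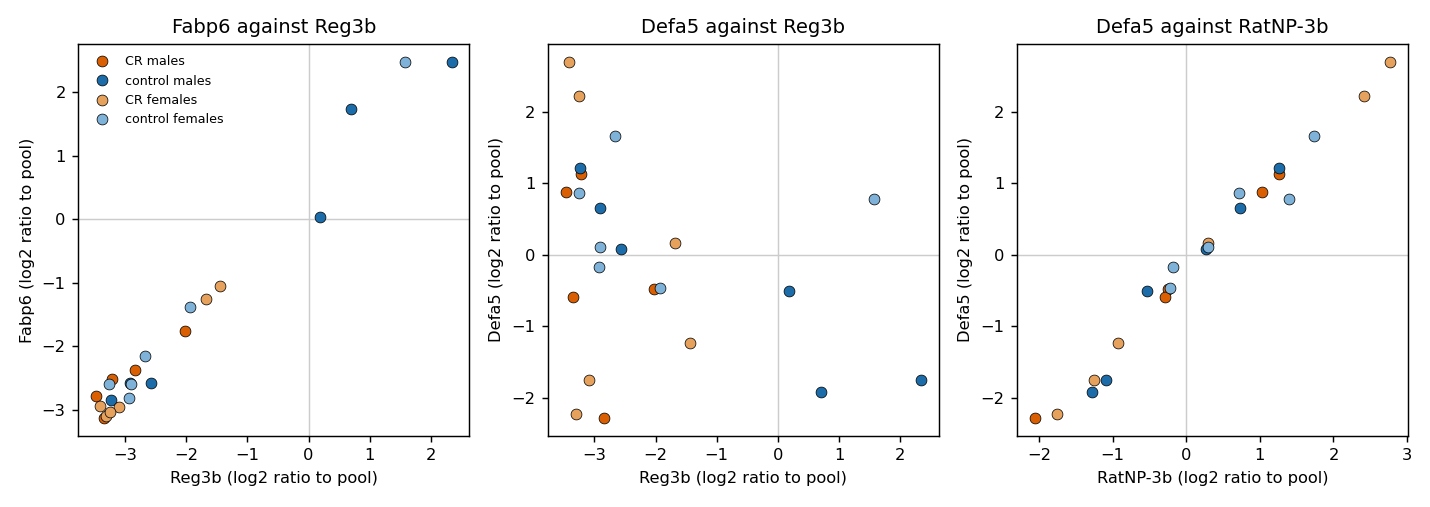
Log2 ratio to the pool of Fabp6 against Reg3b, of Defa5 against Reg3b and of Defa5 against RatNP-3b, 1 point per array, coloured by group. Fabp6 and Reg3b share the 4 control arrays above 0, Defa5 is at or below 0 on 3 of those 4, and Defa5 lies along a line with RatNP-3b (r = 0.990 over 23 arrays).

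A second look at the same question set each member against all other features, over the 23 arrays after centring on the 4 group means. These values are a description with no p, since all points share the 4 bright arrays and the members were chosen for their spread. Of 20734 other features, Fabp6 was the 2nd most like Reg3b (r = 0.986) and Reg3b the 1st for Fabp6. Defa5 ranked 18662nd for Reg3b (r = -0.38) and 18176th for Fabp6 (r = -0.33). With the local background replaced by its array median, Fabp6 and Reg3b still gave 0.984, and with the scanner software's ratio 0.963.

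The genes named as most like Reg3b were Reg3g (r = 0.987), its neighbour in the Reg3 family of lectins, and Fabp2 (r = 0.982), the intestinal fatty acid carrier. Then came Cdhr5 (r = 0.979), a cadherin of the brush border, Cdh17 (r = 0.979), the liver-intestine cadherin, and Krt20 (r = 0.972), a keratin of differentiated intestinal cells. Defa6 (r = 0.967), an alpha-defensin, and S100g (r = 0.966), the intestinal calcium carrier, completed the 8 with Fabp6. For Fabp6 they were the same except that Reg3b replaced Fabp6 and Tff3 (r = 0.966), the trefoil factor of goblet cells, replaced S100g.

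The genes below were named for a high r with the members over these same arrays. Their brightness on the 4 bright arrays follows from that choice and is only a description. Reg3g had a Cy5 brightness of 332 to 1485 on the 4 bright arrays and of 41.2 to 73.3 on the other 19. Fabp2 had 197 to 1182 on the 4 arrays and 39.3 to 52.7 on the others, where it was well above background on none. Defa6 had 130 to 818 on the 4 arrays and 39.3 to 49.3 on the others, again above background on none of the 19. Epcam, the surface protein of epithelial cells, had 71.0 to 282 and 37.7 to 51.8. Of 56 genes looked at array by array, some of them named because they were most like the members, 17 had all 4 arrays above all of the other 19 in Cy5 and 8 in the log2 ratio. Of all kept features 0.241% did so in Cy5 and 0.145% in the log2 ratio. Reg3b and Fabp6 are in all of these counts, though their own Cy5 brightness set the 4 arrays, so their place was fixed in advance. All 17 had control male 1 and control female 1 as their 2 highest. In 15 of the 17, Reg3b and Fabp6 among them, the lowest of the 4 was control male 2.

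**Figure D3:**
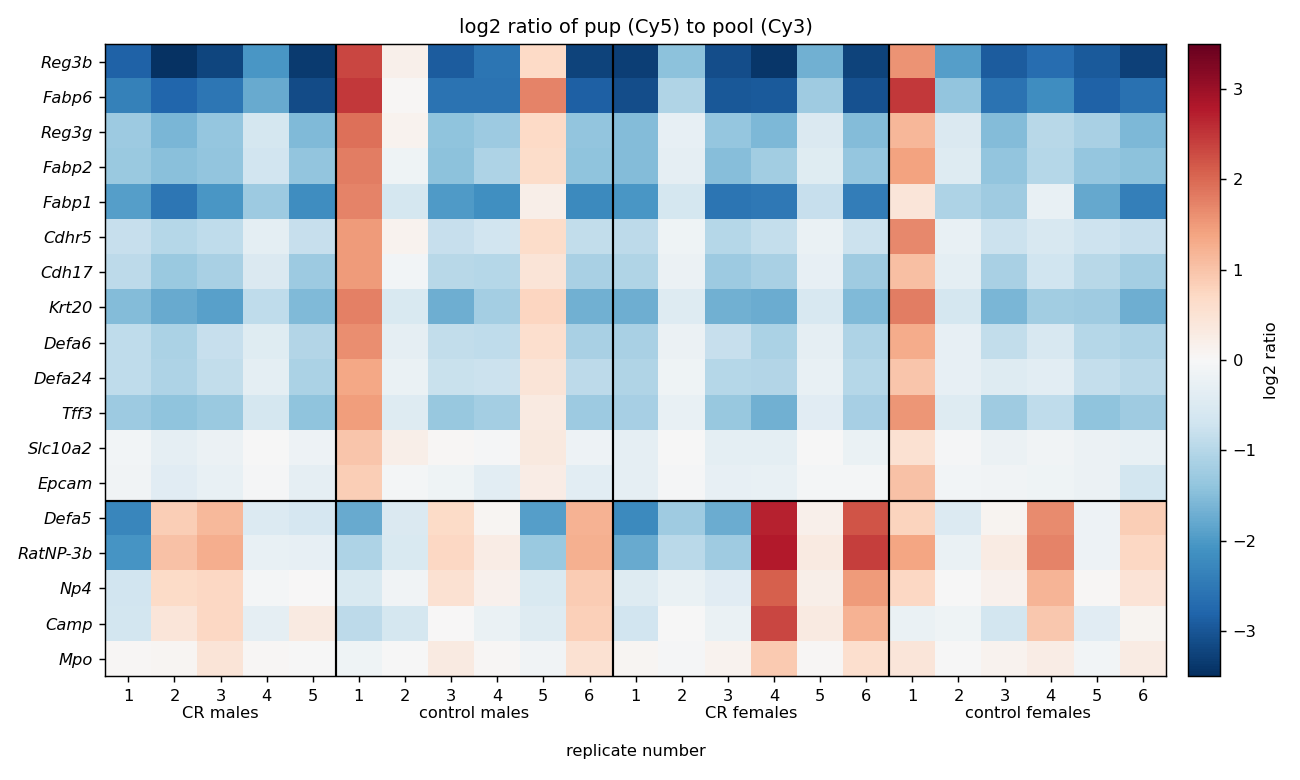
Log2 ratio of pup to pool for 18 genes (rows) on the 23 arrays (columns, by group and replicate number), red above and blue below the pool. Reg3b and Fabp6, at the top, are above the pool on control males 1, 2 and 5 and control female 1 and on no other array. Defa5 and RatNP-3b, which lead the lower block, are highest on CR females 4 and 6.

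The marker lists show how far this pattern reached. An r of at least 0.5 with Reg3b was found for 2.39% of all kept features, with Fabp6 for 2.1% and with Defa5 for 6.02%. Of 17 kept enterocyte genes 10 reached it with Reg3b (Fabp6 among them) and 0 with Defa5. Besides Fabp2, Krt20 and Cdh17 they include Slc15a1, the peptide transporter, at 0.94. Of 7 other kept Paneth cell genes, Defa5 included, 4 reached it with Reg3b: Reg3g, Defa6, Defa24 (r = 0.96) and Guca2b, the peptide uroguanylin (r = 0.86). Defa5 (-0.38) and the phospholipase Pla2g2a (0.42) were among those of the list that did not. Of 11 kept epithelial genes 4 did: Krt19 (0.91), Epcam (0.90), Cdh1 (0.79) and Krt18 (0.76). Of the 2 kept goblet cell genes Tff3 reached it and Zg16 (0.49) did not.

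Many of these genes were kept only because 3 of the 6 control males were bright, so the counts over kept genes favour genes that share those arrays. Over all genes on the array, kept or not, 2.26% of all features had an r of at least 0.5 with Reg3b. It was reached by 16 of 32 enterocyte genes (Fabp6 among them) and 5 of 9 other Paneth cell genes (Defa5 counted in the 9 but not reaching it). It was also reached by 5 of 15 epithelial genes, 5 of 8 goblet cell genes and 4 of 13 enteroendocrine genes. With Fabp6 it was 14 of 31 enterocyte genes, against 2.04%. The other correction gave a like picture: with the array-median background 12 of 17 kept enterocyte genes (Fabp6 among them) reached 0.5 with Reg3b (2.5% of all features) and 11 of 16 with Fabp6 (2.17%). With the scanner software's ratio these were 11 (2.79%), Fabp6 again among them, and 11 (2.12%). In the members' own families 3 of 8 fatty acid binding protein genes on the array, Fabp6 among them, and 1 of 4 other Reg genes reached 0.5 with Reg3b. Of 20 exocrine pancreas genes on the array 0 reached it with Reg3b and 1 with Fabp6, and of 16 hepatocyte genes only Fabp1 (r = 0.91), which enterocytes also make. T cell, B cell, monocyte, platelet, red cell and neutrophil granule lists had 0 each, natural killer cells 2 of 10, plasma cells 1 of 10 and stem cells 1 of 7 (Smoc2, 0.74). Red cell genes were low on the bright arrays: their median log2 ratio was -1.21, -1.27 and -1.25 on control males 1, 2 and 5 and -1.04 on control female 1, and ran from -1.17 to 1.76 on the other 19. Red cell genes were not alone in this. The median r of the kept genes with Reg3b was -0.33 for red cells, -0.42 for B cells and -0.34 for neutrophil granules. It was 0.41 for platelets, 0.19 for T cells, 0.14 for natural killer cells and 0.001 for monocytes. The part of red cells or other blood cells in the values of Reg3b and Fabp6 was not tested.

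Among partners of Fabp6 in bile acid transport, Slc10a2 (r = 0.95 with Reg3b and 0.92 with Fabp6), the ileal uptake transporter, and Slc51a (r = 0.76 with each), the exporter, followed the members. Slc10a2 had a Cy5 brightness of 76.2 to 211 on the 4 bright arrays and of 37.1 to 52.8 on the others, and was above background on none of the 19. These were 2 of 9 kept genes of the list, and 3 of 19 on the array reached 0.5 with Reg3b and 3 of 19 with Fabp6. Rxra (0.28 with Fabp6) and Gpbar1 (0.14 with Fabp6) did not reach 0.5. Of 15 kept genes of the interleukin-22 and Stat3 axis, which induces Reg3b in the gut, 3 reached 0.5 with Reg3b: Osm (0.62), Il1b (0.59) and Junb (0.51). None of these 3 had the 4 arrays above the other 19 in Cy5. In the families of the members, the carriers Fabp5 and Fabp4 had an r of -0.36 and -0.51 with Reg3b. The phospholipase Pla2g2a had 0.42 with Reg3b, and the lysozyme Lyz2 had 0.26 with Defa5.

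Counts of detected enterocyte and Paneth cell genes were highest on the same 4 arrays. Leaving out the members, 7 to 12 of 31 enterocyte genes were well above background on an array of CR males (median 9) and 7 to 11 on CR females (median 9). The counts were 7 to 24 in control males (median 13) and 10 to 18 in control females (median 12). The highest were 24 on control male 1, 18 on control female 1, 17 on control male 5 and 14 on control male 2. Control females 2 and 5 followed closely at 13. Control male 1 also had the most probes well above background of all arrays, 24076. Control female 1, control male 5 and control male 2 had 22693, 22311 and 22062. Of 8 Paneth cell genes other than Reg3b and Defa5, those 4 arrays showed 7, 7, 5 and 6, and no other array more than 3. The median log2 ratio of the Paneth cell genes on an array ran from -0.68 to -0.16 in CR males, from -0.57 to 0.78 in control males, from -0.66 to -0.07 in CR females and from -0.34 to 0.55 in control females. The part of intestinal RNA in these values was not tested.

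**Figure D4:**
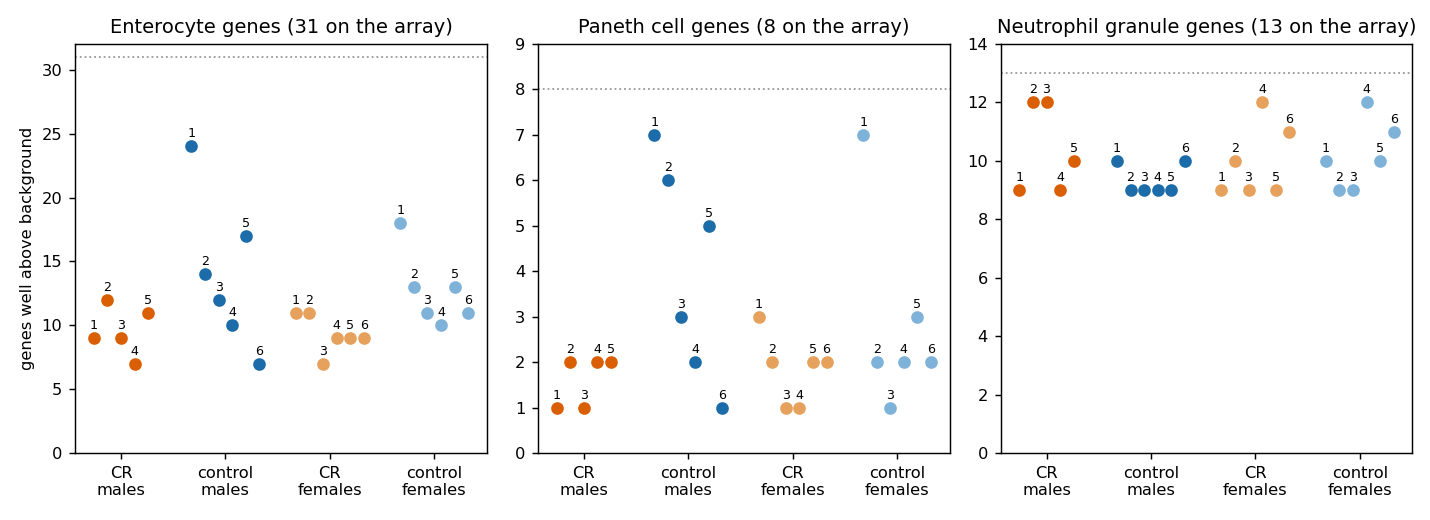
Number of enterocyte, Paneth cell and neutrophil granule genes (members left out) well above background on each array, by group, with the replicate number above each point and a dotted line at the number of genes on the array. Control male 1 and control female 1 lead for enterocyte genes with 24 and 18, and neutrophil granule genes stay between 9 and 12.

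Defa5 had other companions. RatNP-3b (r = 0.990) and Np4 (r = 0.976), both alpha-defensins of rat neutrophils, were the 1st and 2nd features most like it. They were followed by Camp (0.90), the cathelicidin, Lcn2 (0.87), lipocalin of neutrophil granules, Ctsg (0.85), cathepsin G, Ms4a3 (0.84), Mpo (0.84), myeloperoxidase, and Fam72a (0.84). Of 10 kept neutrophil granule genes 8 had an r of at least 0.5 with Defa5, against 6.02% of all features, and 0 with Reg3b. Over all genes on the array it was 9 of 13, against 4.06%. With the array-median background and with the scanner ratio it was again 8 of the 10, against 5.65% and 4.69%. Fam72a and Ms4a3 fell to 0.64 and 0.65 with the scanner software's ratio, where the other 6 stayed between 0.83 and 0.99.

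RatNP-3b had its highest Cy5 brightness on the same arrays, at 10492 on CR female 4 and 7312 on CR female 6, and its lowest on CR male 1 at 157. Without centring, Defa5 gave r = 0.990 and rho = 0.985 with RatNP-3b, and r = 0.967 and rho = 0.986 with Np4, over the 23 arrays. With the Paneth cell defensins it gave r = -0.31 for Defa6 and r = -0.28 for Defa24.

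What the Defa5 probe reads needs care. The scanner files call it Defa and describe alpha-defensin 5 of Paneth cells, and its accession leads to Defa5 in RefSeq, which also lists ratNP-1 and ratNP-2, names of neutrophil defensins, for this gene. The probe lies at chr16:75024441-75024500 (rn4, minus strand), in the cluster of alpha-defensins. The nearest other defensin probe, Defa24, is 7.1 kb away and followed Reg3b. The probes of Np4 and RatNP-3b, with which Defa5 moved, are 261.1 and 310.6 kb away. How far these probes read one another's transcripts was not tested, since probe sequences were not used here. The values of the probe followed neutrophil granule genes and not the gut genes.

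Diet was compared with limma across all 20735 features, with Benjamini-Hochberg adjustment. Reg3b averaged -2.98 ± 0.58 in CR males (SD, n = 5) and -0.92 ± 2.30 in control males (n = 6), as log2 ratios. In CR females it averaged -2.70 ± 0.89 (n = 6), and in control females -2.02 ± 1.81 (n = 6). The difference was -2.06 ± 0.89 (SE) in males (limma adjusted p = 0.672) and -0.68 ± 0.85 in females (limma adjusted p = 0.995). The mean of the sexes was -1.37 ± 0.61 (limma adjusted p = 0.655). None passed the threshold of 0.05, as for all features: 0 of 20735 (0%) passed in either sex or in their mean, though for males, females and the mean 1492, 963 and 1522 had an unadjusted p under 0.05 (7.2%, 4.64% and 7.34%).

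Fabp6 averaged -2.51 ± 0.51 in CR males and -0.63 ± 2.38 in control males, and -2.39 ± 0.96 in CR females and -1.51 ± 2.02 in control females (SD). Its differences were -1.88 ± 0.94 (SE) in males and -0.88 ± 0.90 in females, with a mean of -1.38 ± 0.65 (limma adjusted p = 0.706, 0.995 and 0.676). Defa5 averaged -0.27 ± 1.36 in CR males and -0.37 ± 1.27 in control males, and -0.02 ± 2.08 in CR females and 0.46 ± 0.79 in control females (SD). Its differences were 0.10 ± 0.81, -0.48 ± 0.77 and -0.19 ± 0.56 (SE) in the same order (limma adjusted p = 0.986, 0.995 and 0.974). For Defa5 in males the sign turned when control male 1 or 5 or CR male 2 or 3 was left out, to between -0.25 and -0.17.

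With the array-median background Reg3b averaged -3.31 ± 0.23 in CR males and -0.97 ± 2.36 in control males, and -3.26 ± 0.15 in CR females and -2.45 ± 1.97 in control females (SD). Fabp6 averaged -2.77 ± 0.35 in CR males and -0.63 ± 2.37 in control males, and -2.88 ± 0.33 in CR females and -1.88 ± 2.15 in control females. The CR groups were thus narrower than under the failed correction. The differences were -2.35 ± 0.89 (SE) in males and -0.81 ± 0.85 in females for Reg3b, and -2.14 ± 0.93 and -0.9995 ± 0.89 for Fabp6 (limma adjusted p = 0.573, 0.935, 0.644 and 0.911).

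The two-sided exact permutation test of single genes gave p = 0.11 in males and 0.506 in females for Reg3b, and 0.0583 over both sexes. For Fabp6 it gave exact p-values of 0.145, 0.431 and 0.0683, and for Defa5 of 0.913, 0.606 and 0.749. The smallest p it allows is 0.0022 for males, 0.0011 for females and 2.3e-06 over both. For the mean of the sexes the exact p of Reg3b and of Fabp6 came under 0.05 with several other settings, the scanner software's ratio giving 0.0197 and 0.0313 and the array-median background 0.0339 and 0.0381. Without slide 1 it was 0.498 and 0.553, and without slide 1 under the array-median background 0.0583 and 0.149.

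Of the 4 arrays bright for Reg3b and Fabp6, 3 lay on slide 1 and 1 on slide 4. Slide 1 held control males 1 and 2, control female 1 and CR female 1, whose Reg3b ratio was -3.31. Within slides, with 1 CR and 1 control pup of a sex each, Reg3b differed by -4.88 in females of slide 1 and by -3.91 in males of slide 4, and by -0.90 to 1.25 in the other 8 pairs. Fabp6 differed by -5.57 and -4.25 in those pairs, and by -0.78 to 1.57 in the others. The highest value of both genes is the female pair of slide 5, where the correction failed on CR female 5, whose Reg3b brightness was 55.4 against 87.0 on control female 5. With the array-median background the pairs of slides 1 and 4 gave -4.97 and -3.94 for Reg3b and the other 8 lay between -0.67 and 0.22. For Fabp6 they gave -5.54 and -4.20, and the others lay between -0.47 and 0.95. When slides were a block, the mean over both sexes was -1.03 ± 0.52 for Reg3b and -1.03 ± 0.58 for Fabp6 (limma adjusted p = 0.738 and 0.748). Without slide 1 it was -0.41 ± 0.43 and -0.44 ± 0.49, and the female differences turned to 0.16 and 0.06. CR females 2 and 5, raised by the failed correction, enter these. With the array-median background and without slide 1, the mean was -0.60 ± 0.36 for Reg3b and -0.65 ± 0.43 for Fabp6 (limma adjusted p = 0.805 and 0.827), and the female differences were 0.023 and -0.092. With that background and slides as a block the means were -1.12 ± 0.49 and -1.13 ± 0.54 (limma adjusted p = 0.636 and 0.665). Without control female 1 alone, the female differences were 0.04 for Reg3b and -0.08 for Fabp6. Without control male 1 the male differences were -1.41 and -1.26.

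**Figure D5:**
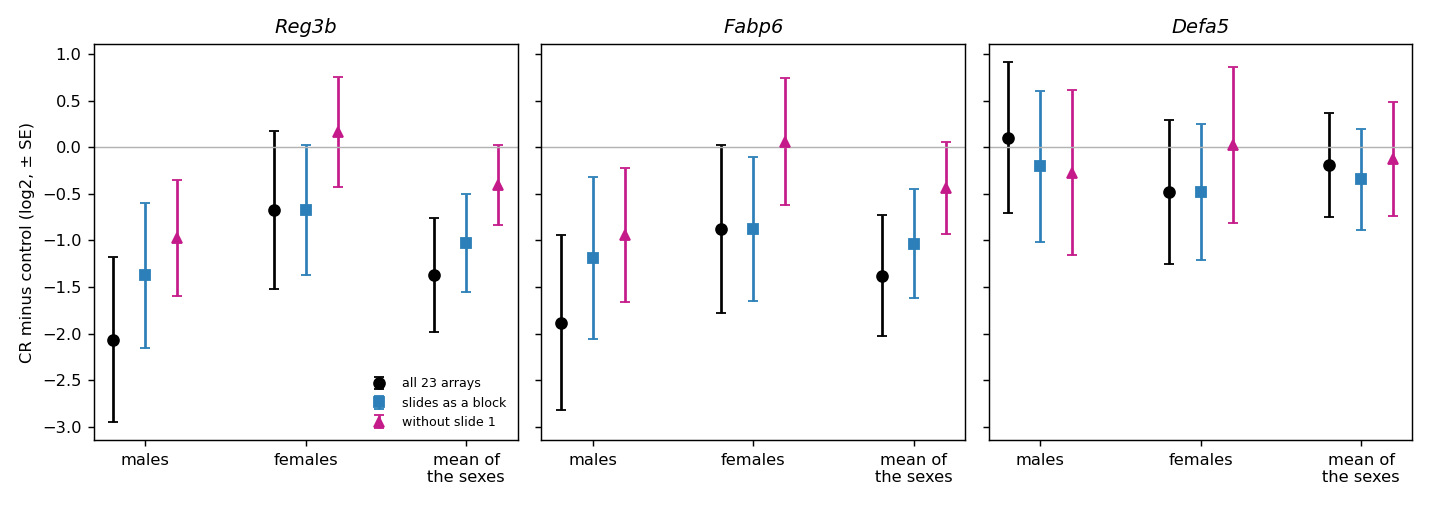
Difference between CR and control pups in log2 ratio (± SE, limma) for Reg3b, Fabp6 and Defa5, by sex and averaged over both. Circles use all 23 arrays, squares add the slides as a block and triangles leave out slide 1, where the mean for Reg3b moves to -0.41 and that for Fabp6 to -0.44.

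The response to diet was not shown to differ between the sexes. The male difference minus the female one was -1.39 ± 1.23 for Reg3b, -1.004 ± 1.30 for Fabp6 and 0.58 ± 1.12 for Defa5 (limma adjusted p = 0.936, 0.96 and 0.971), and 0 of 20735 features (0%) passed, with 969 (4.67%) at an unadjusted p under 0.05. Males minus females gave 0.41 ± 0.61, 0.38 ± 0.65 and -0.54 ± 0.56 for the 3 genes (limma adjusted p = 0.882, 0.901 and 0.837), in a comparison in which 12 features (0.0579%) passed and 7.39% had an unadjusted p under 0.05.

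No feature at all passed the limma test of diet in either sex or in their mean (0 of 20735, 0%). That no kept gene of any marker list passed therefore says nothing particular about the lists. The signs of the differences of the gut genes are not counted, since most of these genes were kept and named through the control arrays on which they were bright.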

How the data were processed

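The deposited files are scanner output of 23 two-colour Agilent arrays, with spot intensity per channel in linear scanner units, which the submitters' processing notes credit to version 10.5.1.1 of Agilent Feature Extraction. They also hold the scanner software's log10 ratio of Cy5 over Cy3, per the file headers. The authors' value table, deposited in log2 units, tracked log2 Cy5 and was an alternative only. Its centring is not stated in the sources used here.

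Intensities were background-corrected in limma 3.58.1 (R 4.3.3) with normexp and an offset of 50, and loess-normalized within arrays with control spots at weight 0. Spots marked as outliers (127 to 427 per array) were left out. A probe was kept if Cy5 was well above background on at least 50% of the arrays of 1 group, and the brightest probe stood for a gene: 23693 of 41012 probes and 20735 features. limma fitted 4 group means and 5 contrasts, with Benjamini-Hochberg adjustment over all features and a threshold of 0.05. Correlations used 100000 permutations, and single genes an exact permutation test. The number of arrays limits the precision. Steps were tested on simulated data.

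Genes were named through accessions from RefSeq (GRCr8): 19696 probes matched, 143 carry their scanner name and 21173 have none. For each member the 8 named features with the highest r, and for each list the 4 genes with the highest mean r over the members, were to be named. Other list genes were named after their values were seen. Members and lists were chosen with earlier results of these data known. Alternatives were the scanner ratio, Cy5 alone, the value table, other centring and scaling, no filter, averaged probes, slide or replicate blocks, array weights and leaving out arrays. After seeing the data, a background replaced by its array median, leaving out slide 1, that background together with leaving out slide 1 or with slides as a block, and limiting correlations to the 19 dim arrays were added.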

Additional observations from a re-analysis of the deposited data

Results flagged for a closer look

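Control female 1 stood apart from the other 5 control females in 4 of the 8 genes looked at in this group (32 sets of a gene and a group were looked at over the 4 groups), with the gap to the nearest array taken as a share of the group's range. Its log2 ratio was 1.57 for Reg3b, where the nearest control female was at -1.94, and 2.48 for Fabp6, where the nearest was at -1.38. It was 1.29 for Defa6 and 0.96 for Defa24, where the nearest were at -0.30 and -0.28. The gaps were 0.726, 0.728, 0.670 and 0.653 of the range. Reg3b and Fabp6 were chosen for their wide spread, and Defa6 and Defa24 were named for a high r with them. No chance rate can therefore be set beside these gaps. The 4 genes share this array, so they are not separate observations.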

How the results depend on the processing

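Reg3b with Fabp6 over the 19 dim arrays lost its call with the scanner ratio (r = 0.385) and with Cy5 alone (0.449). Reg3b with Defa5 turned positive under scaling between arrays (0.568) and centring on slides (0.110), and Fabp6 with Defa5 under both (0.580 and 0.112) and under the replicate block (0.0417). The cause was not tested. Defa5 in males turned to -0.30 with median centring, -0.073 with scaling, -0.20 with slides as a block and -0.28 without slide 1. Without slide 1, Reg3b, Fabp6 and Defa5 in females were at 0.16, 0.061 and 0.024, and the male minus female difference of Defa5 at -0.30. With the array-median background as well, these were 0.023 for Reg3b in females, -0.30 for Defa5 in males and -0.19 for its male minus female difference, and Defa5 in males was at -0.22 with that background and slides as a block.

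Apart from runs that left out 1 array, whose range is given below, the exact permutation p came under 0.05 in these settings. Reg3b in males was at -1.23 (exact p = 0.0317) without slide 1 under the array-median background. Reg3b in females was at -1.58 with the scanner ratio and -1.64 with Cy5 alone. For the mean of the sexes Reg3b and Fabp6 were at -2.57 and -2.36 with the scanner ratio, -2.56 and -2.40 with Cy5 alone, -1.66 and -1.67 with median centring, -1.57 and -1.47 with scaling, -1.74 and -1.70 with the value table, and -1.58 and -1.57 with the array-median background. Without slide 1 the exact p of this mean was 0.498 for Reg3b and 0.553 for Fabp6.

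Leaving out 1 array at a time gave -1.60 to -1.01 for Reg3b and -1.60 to -0.98 for Fabp6 (mean of the sexes, exact permutation p from 0.0345 to 0.119 and from 0.0413 to 0.137). Reg3b in females ran from -0.93 to 0.040, Defa5 in males from -0.25 to 0.61 and the mean for Defa5 from -0.46 to 0.062. No limma diet result of the 3 genes passed 0.05 in any setting run.

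No pairing of the arrays by replicate number was shown: over 33 pairs of same-numbered arrays the correlation of deviations ran from -0.41 to 0.46, with 15 over 0.1. Pairs with different numbers were not set beside them, so pairing is not settled. With the replicate number as a block the mean of the sexes was -1.51 for Reg3b, -1.51 for Fabp6 and -0.05 for Defa5 (limma adjusted p = 0.541 and 0.556 for the first 2). Brightness near the negative controls limits Reg3b and Fabp6 on the 19 dim arrays, where differences between arrays are small against background.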
